A study of Mus musculus with 18 samples.

Results

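Polysialic acid, a long chain of sialic acids carried mainly by the neural cell adhesion molecule NCAM, was followed here through the RNA of 4 genes. St8sia2 and St8sia4 encode the sialyltransferases that build the chain, Ncam1 encodes NCAM, and Cmas encodes the enzyme that activates sialic acid to CMP-sialic acid, the donor that the sialyltransferases use. The 4 genes were chosen by symbol and make up 4 of the 28852 genes in the deposited expression table. Each was read in all 18 libraries, and all 4 had enough expression to be tested.

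The study asked how loss of Alg13, a subunit of an enzyme of N-glycan assembly, affects where interneurons of the mouse cortex settle and how they migrate. RNA of cerebral cortex was sequenced in 6 groups of 3 libraries, labelled Alg13 knockout and wild type at days 1, 7 and 30 after birth. The labels give neither the knockout allele nor the strain, the sex or whether a group's 3 libraries came from separate animals. A p-value here therefore sets a difference against the scatter of these particular libraries. That scatter may be technical alone where the libraries of a group have like levels of the sex-linked genes given below.

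NCAM holds neural cells together, and polysialic acid on it is large and strongly charged and weakens that contact. In the developing brain it is known for its abundance on migrating and outgrowing neurons and for its decline as the cortex matures. St8sia2 is known as the main polysialyltransferase of the embryonic and newborn mouse brain, and St8sia4 as the main one of the adult brain.

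The promoters of both polysialyltransferases are shown because the RNA of both enzymes fell together from day 1 to day 7. The sequences are the RefSeq entries of build GRCm38.p6, from 250 bases before to 50 after the start of the gene, on the strand of the gene from 5′ to 3′. Capitals mark a GC box, whose letters are GGGCGG, on either strand. They also mark a CCAAT box on either strand. St8sia2 lies on the minus strand at chr7:74013633-74013932 and St8sia4 on the minus strand at chr1:95667545-95667844.
St8sia2: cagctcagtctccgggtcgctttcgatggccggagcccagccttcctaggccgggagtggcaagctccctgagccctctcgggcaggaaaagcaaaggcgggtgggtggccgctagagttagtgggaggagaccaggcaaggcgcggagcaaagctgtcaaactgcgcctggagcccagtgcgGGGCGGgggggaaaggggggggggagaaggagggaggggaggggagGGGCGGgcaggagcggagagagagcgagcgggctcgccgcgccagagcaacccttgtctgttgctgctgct
St8sia4: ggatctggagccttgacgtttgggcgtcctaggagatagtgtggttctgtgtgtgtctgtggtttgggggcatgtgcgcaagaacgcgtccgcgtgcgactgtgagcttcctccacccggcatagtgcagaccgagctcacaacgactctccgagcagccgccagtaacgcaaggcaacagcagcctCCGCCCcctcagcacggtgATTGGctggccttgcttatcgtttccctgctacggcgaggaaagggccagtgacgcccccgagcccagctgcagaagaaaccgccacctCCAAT
The St8sia2 window was 68.7% G or C and held 2 GC boxes, none of the CCAAT box, the TATA box TATAAA or the E box CANNTG, searched on both strands. The St8sia4 window was 61.3% G or C and held 1 GC box, 2 CCAAT boxes and 2 E boxes, but no TATAAA. The Cmas window, on the plus strand at chr6:142756436-142756735, was 60.0% G or C and held 1 GC box and 2 E boxes. Of 32851 mouse promoter windows of the same length, 35.7% held a GC box, 37.4% a CCAAT box, 13.6% TATAAA and 72.3% an E box, and the median G or C content was 52.7%. These matches describe the letters of the windows and were not read as binding sites. Ncam1 is named only.

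Expression is given as FPKM, which scales sequenced fragments by the length of the transcript and the depth of the library. FPKM corrects for the transcript length assumed for each gene, and no source used here gives those lengths. Levels of different genes can be set side by side only as far as those lengths hold. The read numbers behind the FPKM were recovered from its steps and summed to between 27863864 and 38408630 reads per library. Summed FPKM of 7 markers of cerebral cortex lay between 351.6 and 661.9 in the 18 libraries. Alg13 itself had 1.04 to 2.57 FPKM in knockout-labelled and 1.93 to 3.27 in wild-type-labelled libraries at day 1. At day 7 it had 1.93 to 2.78 FPKM in knockout-labelled and 1.53 to 1.94 in wild-type-labelled libraries, and at day 30 it had 1.19 to 1.82 FPKM in knockout-labelled and 0.833 to 1.21 FPKM in wild-type-labelled libraries. RNA of Alg13 was thus not lower under the knockout label at days 7 and 30, and it does not check the labels, since no source used here names the deleted part. Every direction between the genotypes below is a direction between labels. Libraries of the same group also differed in Xist, an RNA of female cells, and Ddx3y, a gene of the Y chromosome. In wild-type-labelled libraries 1, 2 and 3 of day 1 Xist had 0.065, 157 and 39.4 FPKM and Ddx3y 20.5, 0.0309 and 11.7 FPKM. Xist had 23.8 and Ddx3y 2.77 FPKM in knockout-labelled library 3 of day 1, and 31.5 and 5.05 FPKM in wild-type-labelled library 2 of day 30. The part of sex in the results was not tested. The wild-type-labelled library 3 of day 1 stood apart, with 35750 FPKM summed over 7 salivary gland markers, against 3.989 to 36.42 in the other 17 libraries. Knockout-labelled library 3 of day 1 and wild-type-labelled library 3 of day 7 had the highest sums of olfactory bulb markers, 23.41 and 19.49 FPKM, and knockout-labelled library 3 of day 7 the highest of choroid plexus markers, 138.4 FPKM. Values without these 4, an alternative chosen after the data were seen, stand beside the results they touch. The falls of St8sia2 at both steps, of St8sia4 to day 7 and of Ncam1 to day 30 also passed the test without these 4.

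**Figure D1:**
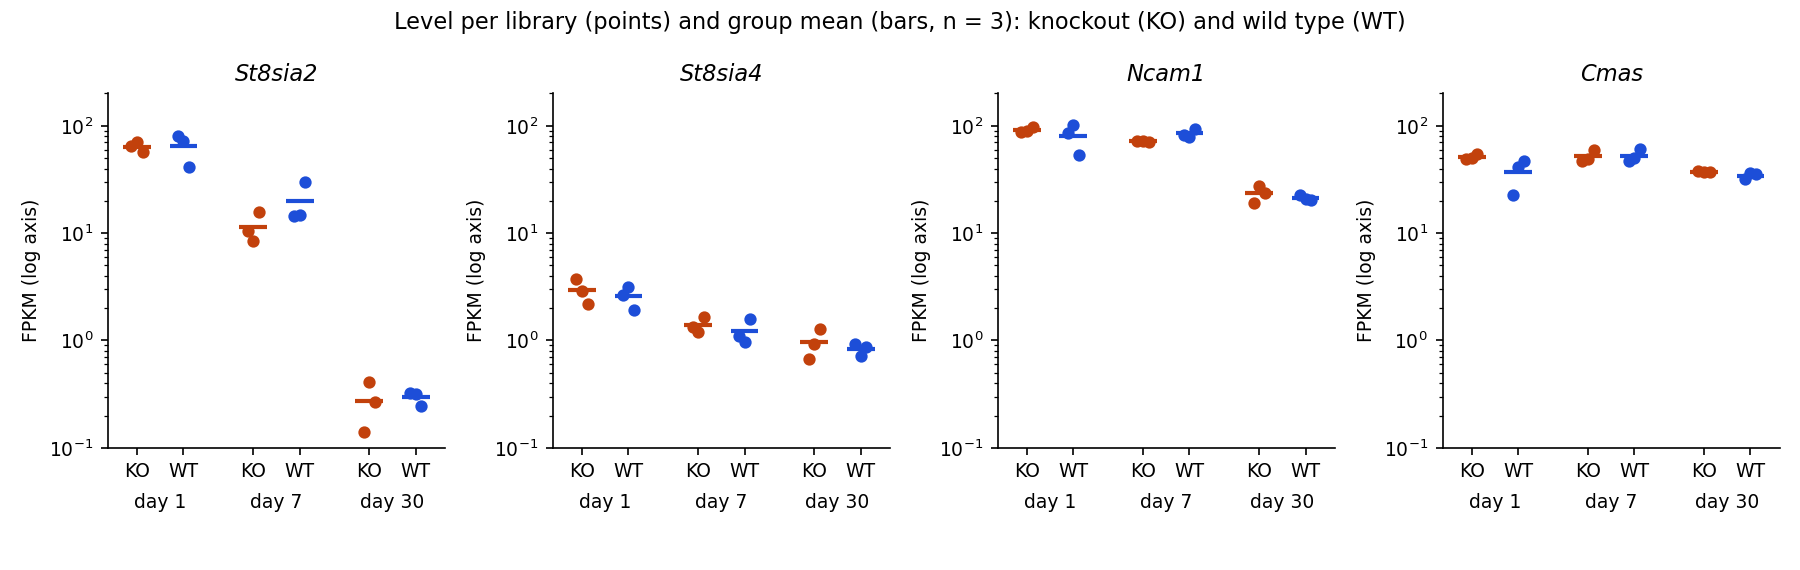
FPKM of St8sia2, St8sia4, Ncam1 and Cmas in the 18 libraries at days 1, 7 and 30 on a log axis, with knockout-labelled libraries left of wild-type-labelled ones, 1 point per library and a bar at each group mean. St8sia2 spans 0.141 to 80.0 FPKM and drops at each later day, whereas Cmas stays between 22.5 and 61.3 FPKM.

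St8sia2 was the gene that varied most. Under both labels its RNA fell from day 1 to day 7 and again to day 30, when its mean was 236 times lower than at day 1 in knockout-labelled and 219 times lower in wild-type-labelled libraries. St8sia2 had 65.0, 70.4 and 56.9 FPKM in knockout-labelled libraries of day 1, 10.4, 8.51 and 15.6 FPKM at day 7, and 0.141, 0.407 and 0.267 FPKM at day 30. In wild-type-labelled libraries it had 80.0, 72.9 and 41.2 FPKM at day 1, 14.6, 14.8 and 30.0 FPKM at day 7, and 0.322, 0.319 and 0.243 FPKM at day 30. The 3 ages did not overlap under either label. Such a separation downward was found for 36.0% of all genes between day 7 and day 1 in knockout-labelled and 29.5% in wild-type-labelled libraries, and between day 30 and day 7 for 33.6% in knockout-labelled and 42.2% in wild-type-labelled ones. The day 30 values rest on 23, 67 and 42 reads in knockout-labelled and 50, 60 and 38 reads in wild-type-labelled libraries, against 8086 to 14659 reads at day 1.

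The mean of St8sia2 at day 7 was 5.57 times lower than at day 1 in knockout-labelled libraries and 3.27 times lower in wild-type-labelled ones. Tests were made with limma on log2(FPKM + 1) over 13347 genes, with p-values adjusted over all of them and a threshold of 0.05. On that scale the day 7 minus day 1 difference was -2.41 (SE 0.267, adjusted p = 3.35e-06) in knockout-labelled and -1.68 (adjusted p = 9.89e-05) in wild-type-labelled libraries. These were the 18th and the 70th most negative differences of all genes tested. From day 7 to day 30 the mean fell a further 42.4 times in knockout-labelled and 67.2 times in wild-type-labelled libraries. The log2 differences were -3.26 (adjusted p = 2.07e-07), the 10th most negative of all genes, and -3.93 (adjusted p = 1.17e-08), the 9th. The added 1 in the logarithm compresses low values, and in limma voom on the recovered reads, which adds no such constant to FPKM, the day 30 minus day 7 differences of St8sia2 were -5.44 in knockout-labelled and -5.94 in wild-type-labelled libraries (adjusted p = 9.59e-06 under the knockout and 1.05e-06 under the wild type label). In whole tissue, fewer cells that express a gene and less RNA in each cell cannot be told apart.

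St8sia4, the other polysialyltransferase, was far lower at day 1 and lost less afterwards. It had 3.77, 2.89 and 2.17 FPKM in knockout-labelled libraries of day 1, 1.35, 1.21 and 1.64 FPKM at day 7, and 0.678, 0.933 and 1.27 FPKM at day 30. In wild-type-labelled libraries it had 2.68, 3.12 and 1.92 FPKM at day 1, 1.09, 0.977 and 1.59 FPKM at day 7, and 0.926, 0.718 and 0.866 FPKM at day 30. Days 1 and 7 did not overlap under either label, while days 7 and 30 overlapped in knockout-labelled libraries. A separation downward from day 1 to day 7 was found for 36.0% of all genes in knockout-labelled and 29.5% in wild-type-labelled libraries. St8sia4 fell from day 1 to day 7 in both, by 0.70 on the log2 scale in knockout-labelled (SE 0.17, adjusted p = 0.0028) and by 0.68 in wild-type-labelled libraries (adjusted p = 0.00344). On recovered reads the difference was -1.04 in knockout-labelled (adjusted p = 0.00189) and -1.07 in wild-type-labelled libraries (adjusted p = 0.00205). Between day 30 and day 7 its log2 differences of -0.30 and -0.27 in knockout-labelled and wild-type-labelled libraries did not pass the test (adjusted p = 0.178 under the knockout and 0.206 under the wild type label). Its mean at day 30 was 3.07 times lower than at day 1 under both labels.

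The polysialyltransferase with more RNA therefore differed between the ages. St8sia2 made up 94.5 to 96.3% of the summed FPKM of both enzymes in knockout-labelled libraries of day 1 and 95.6 to 96.8% in wild-type-labelled ones. At day 7 its share was 87.6 to 90.5% in knockout-labelled and at least 93.1% in wild-type-labelled libraries. At day 30 it was 17.2 to 30.4% in knockout-labelled and 21.9 to 30.8% in wild-type-labelled libraries, so St8sia4 was the higher of the pair in all 6. Such shares depend on the length assumed for each transcript. In knockout-labelled library 1 of day 1, 12840 reads gave 65.0 FPKM for St8sia2 and 2664 reads gave 3.77 FPKM for St8sia4. A ratio within a library does not depend on how that library was scaled. The log2 ratio of St8sia2 to St8sia4 averaged 3.49 at day 7, against 4.55 at day 1, a difference of -1.06, and -1.70 at day 30, against 3.49 at day 7, a difference of -5.19. Each had p = 0.005 in an exact two-sided permutation test within genotype label, the smallest p that 400 arrangements can give, and p = 0.015 after adjustment over 12 ratio tests. Without the 4 libraries that stood apart the differences were -1.18 between day 7 and day 1 (exact p = 0.0556, the smallest that 36 arrangements can give) and -5.06 between day 30 and day 7 (exact p = 0.01, adjusted 0.06).

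**Figure D2:**
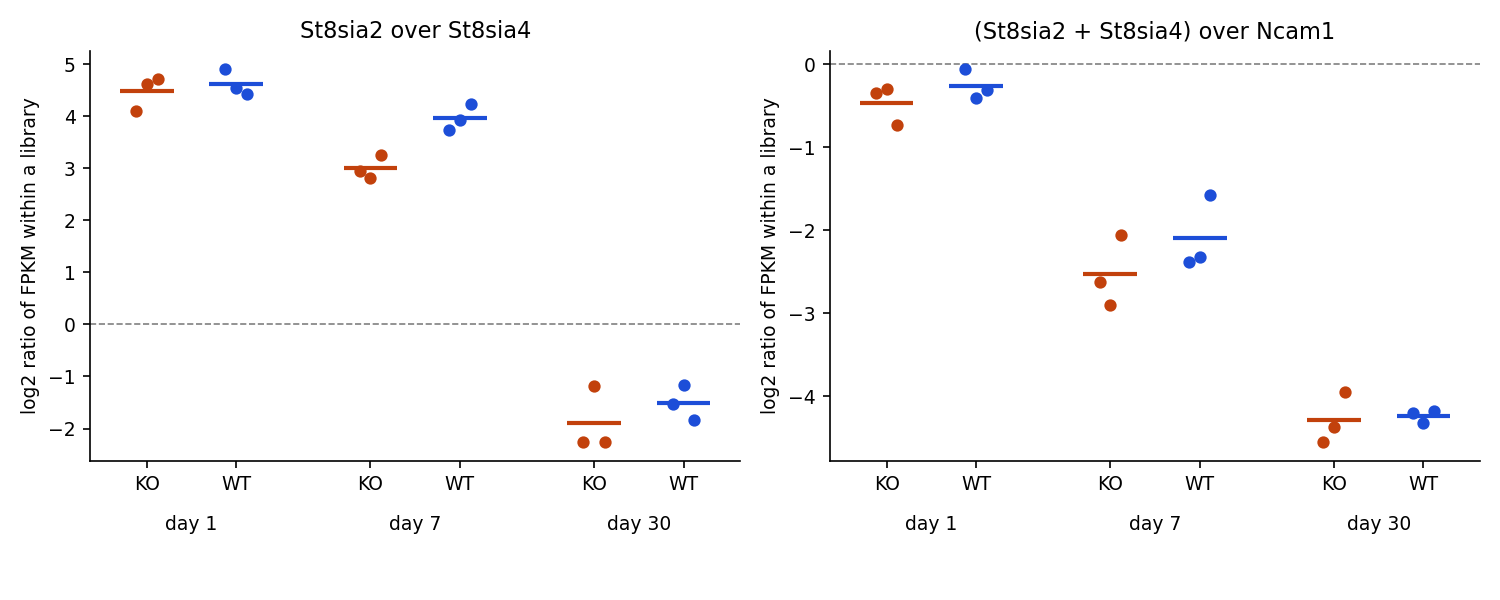
Log2 of St8sia2 over St8sia4 and of their sum over Ncam1 in each of the 18 libraries by day, with knockout-labelled libraries left of wild-type-labelled ones and a bar at each group mean. At day 7 the 3 knockout-labelled ratios of St8sia2 to St8sia4, 2.82 to 3.25, lie below the 3 wild-type-labelled ones, 3.74 to 4.24.

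Ncam1, the carrier, had no difference that passed in the first week and fell later. It had 87.9, 90.1 and 97.9 FPKM in knockout-labelled libraries of day 1, 72.6, 72.5 and 71.3 FPKM at day 7, and 19.1, 27.7 and 23.6 FPKM at day 30. In wild-type-labelled libraries it had 86.3, 101 and 53.6 FPKM at day 1, 81.6, 79.0 and 93.9 FPKM at day 7, and 22.9, 20.7 and 20.2 FPKM at day 30. Every day 30 library was below every library of the earlier days. Between day 30 and day 7 such a separation downward was found for 33.6% of all genes in knockout-labelled and 42.2% in wild-type-labelled libraries. Day 7 minus day 1 differences of -0.35 (SE 0.177, adjusted p = 0.118) in knockout-labelled and 0.12 (adjusted p = 0.593) in wild-type-labelled libraries did not pass the test, and the wild-type-labelled one was -0.14 without the library 3 that held salivary gland RNA. Without that same library the knockout-labelled difference passed, with adjusted p = 0.0187. From day 7 to day 30 Ncam1 fell 3.07 times in knockout-labelled and 3.99 times in wild-type-labelled libraries, with log2 differences of -1.59 (SE 0.177, adjusted p = 4.48e-06) and -1.94 (adjusted p = 2.57e-07).

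Set against their carrier, the RNA of both enzymes together declined at each step. The sum of St8sia2 and St8sia4 divided by Ncam1 was 0.604 to 0.813 in knockout-labelled and 0.752 to 0.957 in wild-type-labelled libraries of day 1. At day 7 it was 0.134 to 0.242 in knockout-labelled and 0.192 to 0.336 in wild-type-labelled libraries, and at day 30 it was 0.0428 to 0.0648 in knockout-labelled and 0.0501 to 0.0550 in wild-type-labelled ones. The 3 ages did not overlap. The log2 ratio differed by -1.95 between day 7 and day 1 and again by -1.95 between day 30 and day 7, each with adjusted p = 0.015 in the exact permutation test within label. Without the 4 libraries it differed by -2.27 between day 7 and day 1 (exact p = 0.0556) and by -1.70 between day 30 and day 7 (exact p = 0.01, adjusted 0.06).

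Cmas, which supplies the donor, moved least, within a 2.73-fold range over the 18 libraries. It had 49.1, 49.7 and 55.2 FPKM in knockout-labelled libraries of day 1, 47.0, 49.5 and 60.1 FPKM at day 7, and 37.7, 37.4 and 37.2 FPKM at day 30. In wild-type-labelled libraries it had 22.5, 41.3 and 47.1 FPKM at day 1, 47.0, 50.1 and 61.3 FPKM at day 7, and 31.7, 36.4 and 35.2 FPKM at day 30. Day 30 lay below day 7 in every library of both labels, as for 33.6% of all genes in knockout-labelled and 42.2% in wild-type-labelled libraries. The low value of 22.5 came from wild-type-labelled library 1 of day 1. The day 7 minus day 1 difference was 0.02 in knockout-labelled libraries (adjusted p = 0.949) and 0.56 in wild-type-labelled ones (SE 0.194, adjusted p = 0.0246). The wild-type-labelled rise was lost without library 1 of day 1, at 0.25 with adjusted p = 0.129, and without library 3 of day 7, at 0.45 with adjusted p = 0.1. It passed without the 4 libraries that stood apart, at 0.65 with adjusted p = 0.00906, and on recovered reads, at 0.57 with adjusted p = 0.0261. From day 7 to day 30 Cmas fell in wild-type-labelled libraries by 0.60 on the log2 scale (adjusted p = 0.0172). This call was lost without library 3 of day 7 (adjusted p = 0.0819) or without library 1 of day 30 (adjusted p = 0.0612). It held without the 4 libraries, at -0.49 with adjusted p = 0.0265, and on recovered reads, with adjusted p = 0.0258. In knockout-labelled libraries the difference was -0.46 and did not pass (adjusted p = 0.0717), but did without wild-type-labelled library 1 or library 3 of day 1 (adjusted p = 0.00506 and 0.0283).

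These counts are read against the change of all genes with age. Between day 7 and day 1, 2 of the 4 genes were lower in knockout-labelled libraries, where 29.4% of all genes tested were lower, and 2 in wild-type-labelled ones, where 28.0% were lower. 1 of the 4, Cmas, was higher in wild-type-labelled libraries, where 20.9% of genes were. Between day 30 and day 7, 2 of the 4 were lower in knockout-labelled libraries, beside 22.0% of all genes, and 3 in wild-type-labelled ones, beside 29.6%. Calls on 4 genes are too few to set their count apart from that background. The median log2 difference of the 4 between day 30 and day 7 was -1.03 in knockout-labelled and -1.27 in wild-type-labelled libraries, beside -0.05 in knockout-labelled and -0.08 in wild-type-labelled libraries over all genes tested.

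Ordered by mean, the 6 groups fell into few separate levels. For St8sia2 the order was wild type day 1, knockout day 1, wild type day 7, knockout day 7, wild type day 30 and knockout day 30 by label, and neighbours were separated by age alone. For St8sia4 the single gap without overlap lay between wild type day 1 and knockout day 7, and for Ncam1 between knockout day 7 and knockout day 30. For Cmas it lay between knockout day 1 and knockout day 30, with wild type day 1 ranked between the day 30 groups. All other neighbours in these orders overlapped.

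Between the labels, none of the 4 genes passed the test on any day. With limma 0 of 4 were called at day 1, where 0.517% of all genes tested were called, 0 of 4 at day 7 (0.00749%), 0 of 4 at day 30 (0.0225%) and 0 of 4 in the mean of the 3 days (0.0974%). At an unadjusted p under 0.05 the numbers were 1 of 4 at day 1 (Cmas), 1 of 4 at day 7 (St8sia2), and 0 of 4 at day 30 and in the mean, beside 21.7%, 3.52%, 3.59% and 10.1% of all genes. Limma voom on the recovered reads also called 0 of 4 in each. The test of whether the genotype difference changed with day gave adjusted p = 0.607 for St8sia2, 0.991 for St8sia4, 0.641 for Ncam1 and 0.616 for Cmas, beside 0.015% of genes called.

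**Figure D3:**
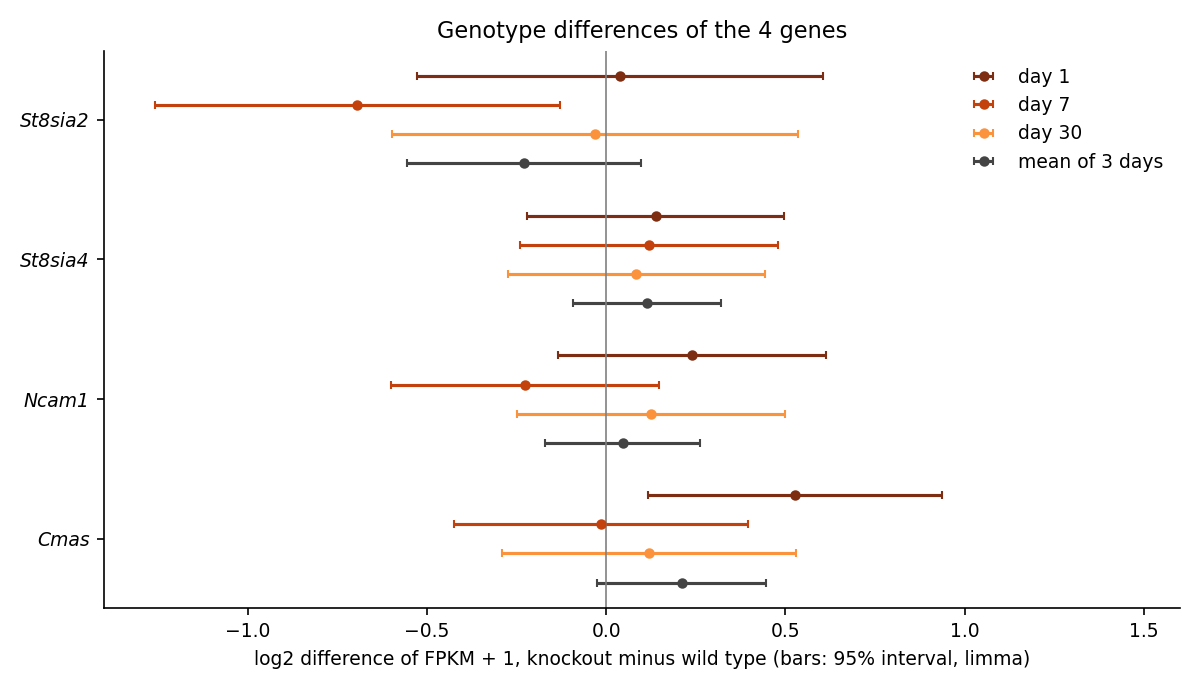
Knockout-labelled minus wild-type-labelled difference in log2(FPKM + 1) of the 4 genes at days 1, 7 and 30 and in the mean of the 3 days, with 95% confidence intervals from limma. The interval of St8sia2 at day 7 lies below 0, from -1.26 to -0.13, and that of Cmas at day 1 above 0, from 0.12 to 0.94, and neither passed after adjustment over all genes.

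At day 7 St8sia2 averaged 11.5 ± 3.68 FPKM in knockout-labelled and 19.8 ± 8.82 FPKM in wild-type-labelled libraries (SD, n = 3 each), a ratio of 0.582. The groups overlapped, because the highest knockout-labelled library, at 15.6 FPKM, exceeded 2 of the 3 wild-type-labelled ones. The log2 difference was -0.69 (SE 0.267, unadjusted p = 0.0193, adjusted p = 1.0), the 17th most negative of 13347. It was -0.37 without wild-type-labelled library 3 and -0.59 (adjusted p = 0.324) without the 4 libraries that stood apart.

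Same-numbered libraries of day 7 deviated together, with correlations of 0.333, 0.337 and 0.53. Knockout-labelled library 2, however, correlated with wild-type-labelled library 1 at 0.393, and library 3 of either label with libraries 1 and 2 of the other at -0.469 to -0.359, so the numbers told library 3 apart but not libraries 1 and 2. A fit of the 6 day 7 libraries with the replicate number as a block, chosen after the data were seen, gave -0.69 with adjusted p = 0.028 for St8sia2. That fit called 3.75% of all genes, and Ncam1, at -0.23, did not pass in it (adjusted p = 0.0954). A fit that weighted libraries by their scatter gave -0.62 (adjusted p = 0.00552) for St8sia2 and called 14.0% of all genes. The weights of that fit came with a convergence warning. The call on St8sia2 at day 7 thus depends on the model.

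Markers of immature neurons differed in the same direction as St8sia2 at day 7. All 11 had negative differences, with a median of -0.33 and 0 called, and their summed FPKM was 3587 to 4008 in knockout-labelled and 4426 to 5299 in wild-type-labelled libraries. Dcx, a microtubule protein of migrating neurons, had 78.3, 73.7 and 86.8 FPKM in knockout-labelled and 110, 88.9 and 147 FPKM in wild-type-labelled libraries. The 4 myelin markers had positive differences, with a median of 0.94, 0 called, and sums of 35.35 to 54.99 FPKM in knockout-labelled and 13.57 to 29.03 FPKM in wild-type-labelled libraries. In the day 7 fit with the block, Dcx at -0.50 (adjusted p = 0.0438) and the myelin gene Mbp at 0.90 (adjusted p = 0.0283) also passed. The 4 microglia markers had positive differences at day 7, with a median of 0.53 and 0 called, and sums of 37.15 to 58.5 FPKM in knockout-labelled and 24.34 to 36.53 FPKM in wild-type-labelled libraries. All 4 passed in the fit with the block. The 7 salivary gland markers had negative differences, with a median of -1.09, and sums of 3.989 to 5.731 FPKM in knockout-labelled and 14.41 to 16.3 FPKM in wild-type-labelled libraries. At day 1, 10 of the 11 immature neuron markers had positive differences, with a median of 0.33. The part of these cell types and tissues in the St8sia2 difference was not tested.

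Library 3 of day 7 was the highest for St8sia2 under both labels, at 1.65 times the mean of libraries 1 and 2 in knockout-labelled and 2.04 times in wild-type-labelled ones. Igfbpl1, a marker of immature neurons, was 3.22 FPKM in knockout-labelled and 5.89 FPKM in wild-type-labelled library 3, which was 15.3 times the mean of the other two in knockout-labelled and 19.6 times in wild-type-labelled libraries. Other markers of that list rose less. Dcx was at 1.14 times in knockout-labelled and 1.48 times in wild-type-labelled library 3, and Sox11 at 1.39 and 2.19 times. Nrp2, which can itself carry polysialic acid, was at 9.77 FPKM in knockout-labelled and 9.06 FPKM in wild-type-labelled library 3, which was 5.92 times the mean of the others in knockout-labelled and 6.3 times in wild-type-labelled libraries. The part of this difference among libraries in the result was not tested.

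The ratio of the enzymes separated the labels at day 7. St8sia2 was 7.70, 7.06 and 9.53 times St8sia4 in knockout-labelled and 13.4, 15.2 and 18.9 times in wild-type-labelled libraries, with no overlap. The mean log2 ratio was 3.01 in knockout-labelled and 3.97 in wild-type-labelled libraries, a difference of -0.96 with p = 0.1 in the exact two-sided permutation test, the smallest that 3 against 3 allows. The difference was -0.15 at day 1 (exact p = 0.6) and -0.39 at day 30 (exact p = 0.3). The day 30 ratios rest on 23 to 67 reads of St8sia2 per library, and with 1 added to FPKM the day 30 difference was -0.11. Over the 3 days the mean log2 ratio was 1.86 in knockout-labelled and 2.36 in wild-type-labelled libraries. The difference of -0.50 had p = 0.019 when labels were exchanged within days in an exact permutation test, and 0.0456 after adjustment over 12 tests. Leaving out 1 library at a time gave differences of -0.62 to -0.44 with unadjusted exact p of 0.00325 to 0.0432, and p adjusted over the 12 tests ran from 0.012 to 0.104. The adjusted p stayed under 0.05 in 6 of these 18 repeats. The call was also lost with 1 added to FPKM, at -0.34 (exact p = 0.0307, adjusted 0.0738), and without the 4 libraries that stood apart, at -0.57 (exact p = 0.025, adjusted 0.1). The sum of both enzymes over Ncam1 differed by -0.23 over the 3 days (exact p = 0.131, adjusted 0.224).

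Cmas at day 1 averaged 51.3 ± 3.36 FPKM in knockout-labelled and 37.0 ± 12.9 FPKM in wild-type-labelled libraries (SD, n = 3 each). Every knockout-labelled library was above every wild-type-labelled one, as for 8.92% of all genes. The log2 difference of 0.53 (SE 0.194) did not pass the test (unadjusted p = 0.015, adjusted p = 0.147), and without wild-type-labelled library 1 it was 0.21 (adjusted p = 0.321). Without the 4 libraries that stood apart it was 0.68 (adjusted p = 0.132). At day 30 Cmas again did not overlap, with 37.5 ± 0.254 FPKM in knockout-labelled and 34.4 ± 2.41 FPKM in wild-type-labelled libraries, a log2 difference of 0.12 (adjusted p = 1.0). Such separation upward was seen for 9.35% of genes at day 30. At day 7 its difference was -0.02, with an interval of -0.43 to 0.40.

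Ncam1 averaged 72.1 ± 0.700 FPKM in knockout-labelled and 84.8 ± 7.96 FPKM in wild-type-labelled libraries of day 7 (SD, n = 3 each). All 3 knockout-labelled libraries were lower, as for 10.9% of genes, and the log2 difference of -0.23 had an interval of -0.60 to 0.15 (adjusted p = 1.0). At day 1 it was 0.24 (adjusted p = 0.431), with overlapping groups, and -0.07 without the 4 libraries that stood apart. St8sia4 differed by 0.14, 0.12 and 0.08 at days 1, 7 and 30, with overlap on each day and an interval of -0.22 to 0.50 at day 1 and of -0.24 to 0.48 at day 7. These intervals leave room for differences of either sign.

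The genes around the 4 were read in 8 lists, namely donor supply, sialidases and sialic acid breakdown, the other St8sia enzymes, the sialyltransferases that add single sialic acids, N-glycan building, other carriers of polysialic acid, partners of NCAM and its relatives among adhesion molecules. Of 57 such genes 51 could be tested. Between the labels 1 was called at day 1, beside 0.517% of all genes tested. At day 7 (0.00749% of all genes), at day 30 (0.0225%), in the mean (0.0974%) and in the interaction (0.015%), 0 were called. The one called was Npl, an enzyme that breaks down sialic acid, with 2.84, 2.22 and 3.48 FPKM in knockout-labelled and 1.26, 1.51 and 1.28 FPKM in wild-type-labelled libraries of day 1 and a log2 difference of 0.70 (adjusted p = 0.0371). That call was lost on the recovered reads and without the 4 libraries that stood apart.

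With age the related genes changed in both directions. Over all genes tested, between day 7 and day 1 19.3% were higher and 29.4% lower in knockout-labelled libraries, and 20.9% higher and 28.0% lower in wild-type-labelled ones. Between day 30 and day 7 15.9% were higher and 22.0% lower in knockout-labelled libraries, and 20.8% higher and 29.6% lower in wild-type-labelled ones. The counts of each list below stand beside these shares, and nothing is called particular to a list of so few genes. Between day 7 and day 1, 22 of 51 passed in knockout-labelled libraries, 15 higher and 7 lower, and 28 in wild-type-labelled ones, 20 higher and 8 lower, beside 48.7% of all genes in knockout-labelled and 48.9% in wild-type-labelled libraries. Between day 30 and day 7, 25 passed in knockout-labelled libraries, 10 higher and 15 lower, and 27 in wild-type-labelled ones, 12 higher and 15 lower, beside 37.9% of all genes in knockout-labelled and 50.4% in wild-type-labelled libraries.

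In donor supply 4 genes besides Cmas were tested, and Nans, the synthase that makes sialic acid, fell at both steps. Its means were 27.9, 14.0 and 4.77 FPKM at days 1, 7 and 30 in knockout-labelled libraries and 31.2, 17.9 and 4.57 FPKM in wild-type-labelled ones. The day 30 minus day 7 differences were -1.37 (adjusted p = 3.32e-05) in knockout-labelled and -1.75 (adjusted p = 1.35e-06) in wild-type-labelled libraries, and none of the other 3 passed at that step under either label. Gne, the first enzyme of the route, had 39.3 FPKM in wild-type-labelled library 3 of day 1 and 4.2 to 7.58 FPKM in the others. Slc35a1, the carrier of CMP-sialic acid into the Golgi, fell from day 1 to day 7 in wild-type-labelled libraries, by 0.46 on the log2 scale (adjusted p = 0.0141).

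Of 6 genes tested in the list of sialidases and sialic acid breakdown, 4 rose from day 7 to day 30 under both labels, beside 15.9% of all genes in knockout-labelled and 20.8% in wild-type-labelled libraries. The other two did not pass, Npl at -0.06 in knockout-labelled and -0.08 in wild-type-labelled libraries, and Slc17a5, which carries sialic acid out of the lysosome, at 0.37 in knockout-labelled and 0.32 in wild-type-labelled ones. The sialidase Neu4 averaged 0.0799, 1.36 and 2.73 FPKM at days 1, 7 and 30 in knockout-labelled and 0.0572, 0.782 and 2.23 FPKM in wild-type-labelled libraries. Its day 30 minus day 7 differences were 0.66 (adjusted p = 0.00318) in knockout-labelled and 0.88 (adjusted p = 0.000186) in wild-type-labelled libraries. Neu2 rose by 1.47 on the log2 scale in knockout-labelled and by 1.22 in wild-type-labelled libraries. Neu1, the lysosomal sialidase, rose by 0.92 in knockout-labelled and 0.98 in wild-type-labelled libraries, and Ctsa, the protein that protects it, by 0.51 in knockout-labelled and 0.46 in wild-type-labelled ones.

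Of the other St8sia enzymes 3 were tested, and under both labels 2 rose and 1 fell from day 1 to day 7. St8sia5, a ganglioside sialyltransferase, averaged 1.95, 12.1 and 23.3 FPKM at days 1, 7 and 30 in knockout-labelled and 2.24, 9.11 and 19.3 FPKM in wild-type-labelled libraries. It rose from day 1 to day 7 by 2.17 (adjusted p = 3.35e-05) in knockout-labelled and by 1.76 (adjusted p = 0.00023) in wild-type-labelled libraries, and again to day 30, by 0.90 in knockout-labelled and 1.04 in wild-type-labelled libraries. St8sia3 rose to day 7, by 0.47 in knockout-labelled and 0.65 in wild-type-labelled libraries, and fell to day 30, by 0.47 in knockout-labelled and 0.36 in wild-type-labelled ones. St8sia1 fell from day 1 to day 7, by 0.45 in knockout-labelled and 0.47 in wild-type-labelled libraries (adjusted p = 0.0164 and 0.0138). Of the sialyltransferases that add single sialic acids, 12 were tested, and 4 rose and 2 fell from day 1 to day 7 in knockout-labelled libraries, against 5 and 2 in wild-type-labelled ones. Among them St6gal1, which acts on N-glycans, fell by 1.49 in knockout-labelled and by 1.51 in wild-type-labelled libraries, and St6galnac6 rose by 1.17 in knockout-labelled and by 1.70 in wild-type-labelled libraries.

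Partners of NCAM moved in both directions. Gap43, a growth cone protein, averaged 703, 863 and 96.2 FPKM at days 1, 7 and 30 in knockout-labelled and 523, 1120 and 84.4 FPKM in wild-type-labelled libraries. It fell from day 7 to day 30 by 3.16 in knockout-labelled (adjusted p = 4.98e-09) and by 3.71 in wild-type-labelled libraries (adjusted p = 3.41e-10). L1cam, an adhesion molecule that binds NCAM, fell by 2.24 in knockout-labelled and by 2.27 in wild-type-labelled libraries. Prnp, the prion protein, rose by 1.06 in knockout-labelled and 1.41 in wild-type-labelled libraries, and Gfra1, a receptor subunit for GDNF, by 1.06 in knockout-labelled and 1.20 in wild-type-labelled ones. Of 8 partners tested 2 rose and 4 fell at this step under each label. The 11 relatives of NCAM again include L1cam, which is thus counted in both lists. Of these 11, 1 rose and 6 fell in knockout-labelled libraries and 2 rose and 6 fell in wild-type-labelled ones. Among them Chl1 fell by 2.44 in knockout-labelled and by 2.34 in wild-type-labelled libraries. Ncam2, the nearest relative of Ncam1, took another course, rising from day 1 to day 7 by 1.70 in knockout-labelled and 1.59 in wild-type-labelled libraries. Of the other carriers of polysialic acid, Cadm1 and Nrp2, neither was called in any age comparison. Of 6 genes of N-glycan building, Mgat2 and Fut8 fell from day 7 to day 30 under both labels, by 0.42 and 0.25 in knockout-labelled and by 0.61 and 0.40 in wild-type-labelled libraries.

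**Figure D4:**
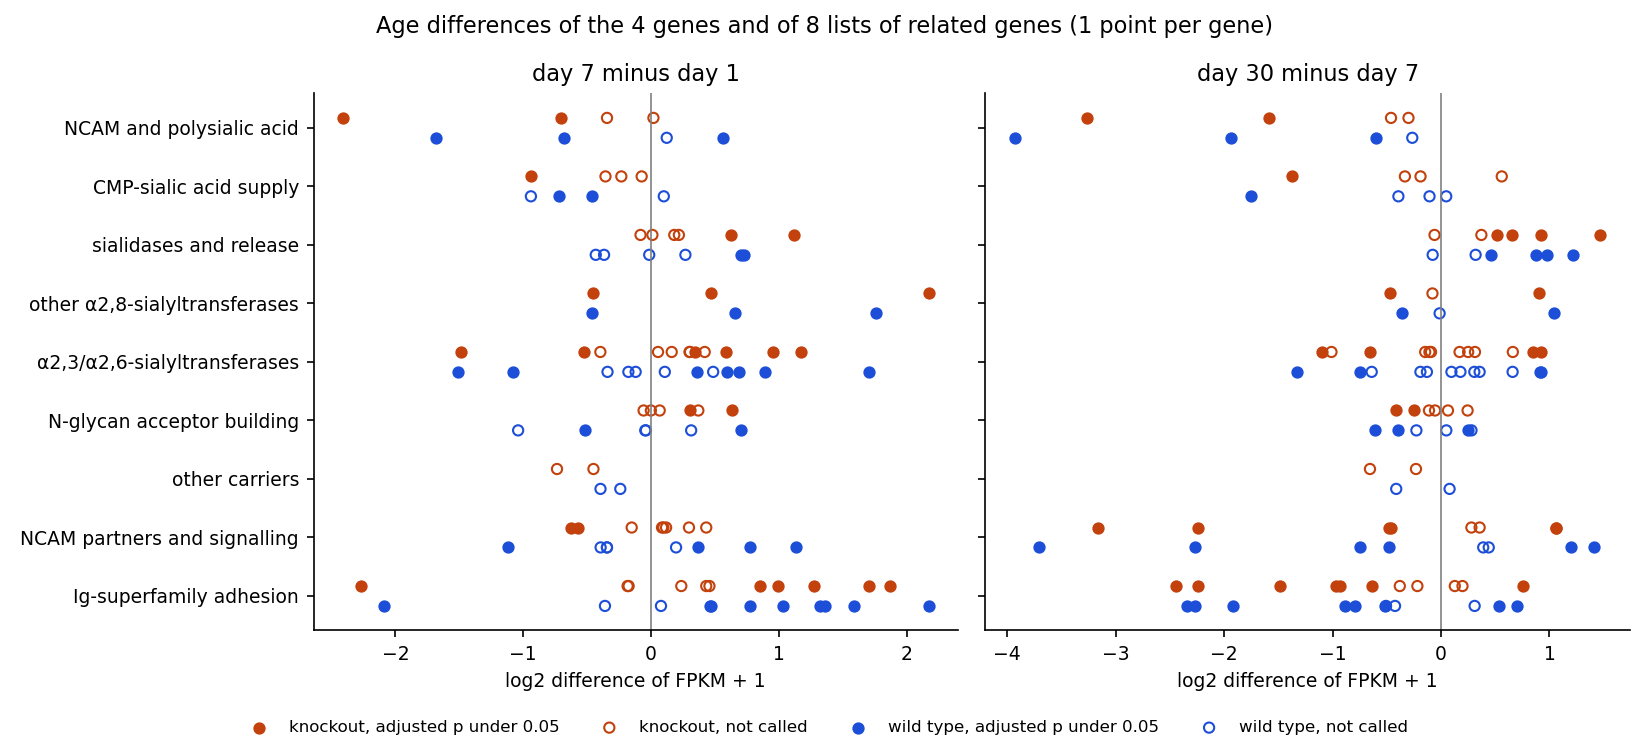
Day 7 minus day 1 and day 30 minus day 7 differences in log2(FPKM + 1), with 1 point per gene for the 4 genes and the 8 lists, knockout-labelled above wild-type-labelled, and filled points where the adjusted p is under 0.05. St8sia2 is the leftmost point of its row in both panels, with knockout-labelled and wild-type-labelled values of -2.41 and -1.68 on the left and of -3.26 and -3.93 on the right.

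Likeness of course was measured as the root mean square distance between profiles of log2(FPKM + 1) over the 18 libraries, each centred on its own mean, among 7914 genes with a mean of at least 5 FPKM. These distances describe the libraries and carry no test, since the ages dominate them. Nearest to St8sia2 were Trim67 at 0.308, Dcx at 0.416, Tubb2b at 0.518, Vash2 at 0.538 and Stk32b at 0.564. Trim67 averaged 55.8, 15.3 and 0.334 FPKM at days 1, 7 and 30 in knockout-labelled and 66.1, 29.1 and 0.302 FPKM in wild-type-labelled libraries. Dcx averaged 231, 79.6 and 5.85 FPKM in knockout-labelled and 211, 115 and 6.14 FPKM in wild-type-labelled libraries. Both had the lower mean under the knockout label at day 7. The distance took in the day 7 libraries, so this likeness was partly set by how these genes were picked.

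For the other 3 genes the nearest distances were smaller. The distance is not scaled by how far a gene changes, so genes that change little lie near each other. The added 1 also compresses the low values of St8sia4. In knockout-labelled libraries of days 1 and 30 St8sia4 averaged 2.94 and 0.959 FPKM, and Zbtb33, its nearest gene, 12.5 and 6.68 FPKM. Among the nearest to St8sia4 were Zbtb33 at 0.124, Ddx6 at 0.127, Ttc9c at 0.143 and Clasp1 at 0.144. Ncam1 was nearest to Usp22 at 0.116, Rimklb at 0.125, Vash1 at 0.132, Gprin1 at 0.136 and Mmp24 at 0.14. Cmas was nearest to Nagk at 0.13, a kinase for N-acetylglucosamine, then to Ccm2 at 0.142, Abhd14a at 0.149, Stn1 at 0.151 and Cops6 at 0.151. St8sia2 lay 1.99 from St8sia4, 1.56 from Ncam1 and 2.26 from Cmas, and the other 3 lay between 0.516 and 0.774 from each other.

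**Figure D5:**
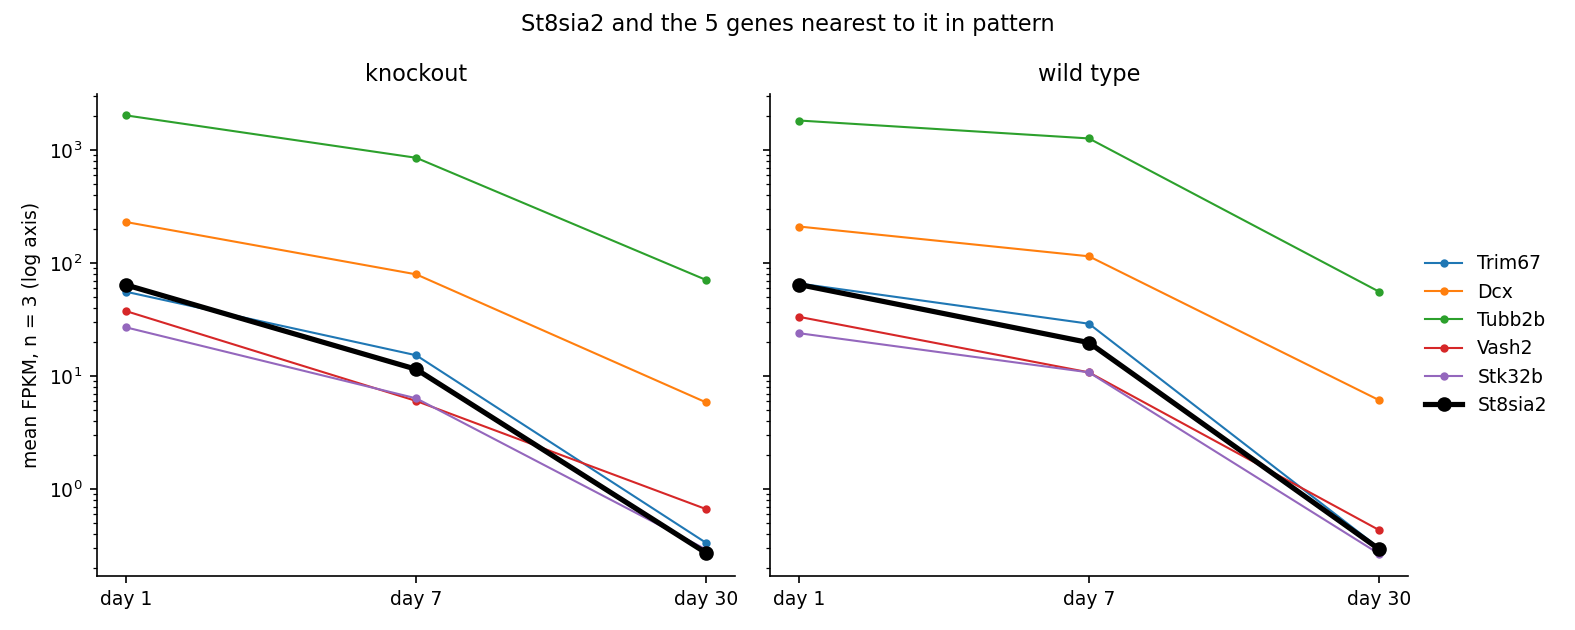
Mean FPKM (n = 3, log axis) at days 1, 7 and 30 of St8sia2, in black, and of the 5 genes nearest to it in pattern, Trim67, Dcx, Tubb2b, Vash2 and Stk32b, in knockout-labelled libraries on the left and wild-type-labelled ones on the right. Each line drops at each later day, and St8sia2 lies close to Trim67, which ends at 0.334 FPKM in knockout-labelled and 0.302 FPKM in wild-type-labelled libraries.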

How the data were processed

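RNA of 18 libraries of mouse cerebral cortex, in 6 groups of 3, was analysed from the FPKM values that the authors deposited, 1 column per library without pooling. Tools named in the submitters' processing notes are RSEM 1.3.1, Bowtie2 and DESeq2 1.4.5, with genome build GRCm39. No source used here gives their role, the annotation or the strand setting, so reads of overlapping genes may be shared. The labels give 1 batch date.

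Genes with at least 1 FPKM in at least 3 of 18 libraries were kept, 13347 in all, and log2(FPKM + 1) was fitted to the 6 group means with limma 3.58.1 (R 4.3.3) with a trend, adjusted by the Benjamini-Hochberg method at 0.05, two-sided. The added 1 understates changes of low genes. Within a library FPKM steps were taken as whole reads: 28851 of 28852 genes came out whole within 0.001 read, including 13346 of the 13347 tested. Genes detected in very few libraries come out whole almost by construction, so these totals do not check them. Limma voom on these reads was an alternative chosen after seeing the data. It called 38 genes at day 1, 1 at day 7 and 0 at day 30 between the labels. Confidence intervals are at 95%. Fits were tested on simulated data.

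Ratios of genes within a library were compared by exact permutation over every arrangement, with p adjusted over the 12 tests again under each alternative. Promoters came from RefSeq, where 3 of the 4 genes matched.

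Replicate numbers come from the titles. Same-numbered libraries deviated together at day 7, with correlations of 0.333, 0.337 and 0.53, past a rule of over 0.1 in every pair. A day 7 fit with the replicate number as a block was therefore made as an alternative, and the main tests took no pairs. The rule does not single out pairs, since library 2 knockout and library 1 wild type reached 0.393. At day 1 (0.0252, 0.131 and 0.0976) and day 30 (-0.336, -0.0414 and -0.0576) the rule was not met.

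The 4 genes and the lists were chosen with earlier results of these data known. Named genes are the 4, from each list at most 4 that passed, taken by size of the difference, or 2 by p where no member passed, and the 5 nearest profiles of each of the 4 among genes of at least 5 FPKM on average, of which 1 is not reported here. Igfbpl1, Sox11 and Nrp2 at day 7, and Gne at day 1, were named after their values were seen. Alternatives were a pseudocount of 0.1, no filter, rescaling, median and quantile scaling, fits of the compared groups alone, library weights, a replicate block, and leaving out libraries. The library weights gave a convergence warning, so results with weights are given with that limit.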

Additional observations from a re-analysis of the deposited data

How the results depend on the processing

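Of 356 values of the 4 genes under settings other than leaving out 1 library, 329 kept their direction and side of the threshold, 16 changed direction, 8 gained the call and 3 lost it. The age calls of St8sia2, of St8sia4 at day 7 and of Ncam1 at day 30 held under each of these settings. Scaling to equal medians removes the median log2 offset of each library from the gene means. That offset was 0.0357 to 0.161 at day 1 and -0.124 to -0.0615 at day 30. Causes were not tested.

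Knockout minus wild type at day 1, St8sia2 was -0.0935 with quantile scaling, -0.0716 with library weights and -0.172 without the 4 libraries that stood apart, and Ncam1 was -0.0926 with weights and -0.069 without the 4. The 69 genes called became 26 after rescaling, 40 with median scaling, 0 with the groups alone, 138 with weights, 39 with the block, 35 without the 4 and 38 on reads. The 1 related gene became 0 with no filter, the groups alone, weights, without the 4 and on reads. At day 7, St8sia2 passed at -0.623 with weights and at -0.694 with the replicate block in the day 7 libraries, but had adjusted p = 1.0 with the replicate block over all 18. Cmas was 0.0173 after rescaling, 0.0362 with quantile scaling and 0.011 with weights. The 1 gene called at day 7 became 6 with no filter, 2 after rescaling, 9 with the groups alone, 1875 with weights, 4 without the 4 and 500 with the day 7 block, and related genes became 6 with weights and 4 with that block. The 3 genes of day 30 became 28 with no filter, 8 without the 4 and 0 on reads. In the mean of 3 days Ncam1 was -0.000346 with quantile scaling, -0.043 with weights and -0.0295 without the 4, and the 13 genes became 78 with weights and 8 with the block. The 2 interaction genes became 0 with pseudocount 0.1, rescaling, median scaling, the block, without the 4 and on reads, 8 with no filter and 17 with weights.

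Day 7 minus day 1 in knockout-labelled libraries, Ncam1 passed at -0.345 with the groups alone and -0.311 with weights, and Cmas was -0.0123 with weights and -0.033 without the 4. In wild-type-labelled ones Ncam1 was -0.0395 with quantile scaling, -0.236 with weights and -0.216 without the 4, and Cmas did not pass at 0.56 with no filter or with the groups alone. Weights called 9894 genes and 39 related ones in knockout-labelled libraries. Day 30 minus day 7, knockout-labelled Cmas passed at -0.563 after rescaling and at -0.461 with the groups alone and with the block. In wild-type-labelled libraries St8sia4 passed at -0.193 with weights, Cmas did not pass at -0.413 with quantile scaling, and weights called 10111 genes and 41 related ones.

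The log2 ratio of the enzymes in the mean of 3 days was -0.34 with 1 added and -0.57 without the 4, and neither passed after adjustment over 12 tests. Without the 4 no age difference of the ratios passed after adjustment, at -1.18 (day 7 minus day 1) and -5.06 (day 30 minus day 7) for the enzymes and -2.27 and -1.7 for their sum over Ncam1, since 36 and 100 arrangements can give no exact p under 0.0556 and 0.01.

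Leaving out 1 library at a time gave the following ranges for knockout minus wild type. At day 1, St8sia2 ran from -0.253 to 0.217, St8sia4 from -0.00952 to 0.285, Ncam1 from -0.0236 to 0.428, and genes called from 10, without knockout-labelled library 3, to 1531, without wild-type-labelled library 2, with 0 to 16 related ones. At day 7, Cmas ran from -0.118 to 0.095 and genes called from 0 to 2. At day 30, St8sia2 ran from -0.106 to 0.0449, St8sia4 from -0.0267 to 0.19 and genes called from 0 to 16. In the mean, Ncam1 ran from -0.0419 to 0.109 and genes called from 6 to 57, and interaction genes from 0 to 4. The log2 ratio of the enzymes ran from -0.27 to 0.04 at day 1 and from -0.62 to -0.44 in the mean, where 12 of 18 repeats lost the adjusted call, and their sum over Ncam1 from -0.22 to 0.08 at day 30 and from -0.31 to -0.14 in the mean. Day 7 minus day 1, Ncam1 ran from -0.377 to -0.3 and Cmas from -0.0853 to 0.0883 in knockout-labelled libraries, and from -0.142 to 0.31 and from 0.245 to 0.763 in wild-type-labelled ones. Day 30 minus day 7, Cmas ran from -0.531 to -0.358 in knockout-labelled and from -0.674 to -0.486 in wild-type-labelled libraries.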
